A study of Homo sapiens with 18 samples.

Results

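The interferon-stimulated genes described here are 54 genes listed by symbol, chosen as genes that type I interferon is known to switch on. The choice was made with earlier results of these data known. Of them, 53 had a probeset among the 23786 probesets of the deposited table, and STAT2 was not analysed here. Interferon is secreted by cells that sense foreign or misplaced nucleic acid. It binds receptors that signal through the kinases JAK1 and TYK2 to the factor ISGF3, which binds the interferon-stimulated response element upstream of these genes. Their products block the entry, translation and release of viruses, display antigen, attract T cells and feed back on the pathway, and many tumor lines keep some of them on without added interferon.

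RNA of 2 established oral squamous cell carcinoma lines, CAL27 and HSC-3, was hybridized to 18 arrays, 3 for each of 6 groups. Both lines received either 10 µM ICG-001 dissolved in DMSO or 0.1% DMSO alone. ICG-001 binds the coactivator CBP and keeps β-catenin from docking there. HSC-3 cells were also transfected with either 25 nM of a pool of CTNNB1 siRNAs, which target the β-catenin transcript, or 25 nM of a non-targeting control pool. Cells on ICG-001 or DMSO were harvested after 48 to 64 h and transfected cells after 48 h. No interferon and no virus was added in any group. Each group is 3 wells of 1 line, and since no source says that the wells were separate cultures, the p-values here measure the spread between wells. All levels below are log2 values, so a difference of 1 is a 2-fold change, and a level of 1 gene was never set against that of another. The siRNA arrays were normalized apart from the ICG-001 arrays, so their levels are not compared with those.

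The array medians lay between 4.73 and 4.77 on the 12 ICG-001 arrays, and arrays of 1 group correlated with r between 0.9935 and 0.9955 over all probesets. All 6 measured epithelial markers were above the array median in every group. Of 11 leukocyte markers, 1 to 3 had a group mean above the array median, and these were CD68, CD14 and CSF1R. The defining leukocyte gene PTPRC was below it on all 18 arrays. Of 7 fibroblast markers only COL1A1 was above it. Of 5 endothelial markers only CDH5 was above it, in CAL27 cells alone, where it averaged 7.39 on ICG-001 and 8.25 on DMSO. CD14 in CAL27 cells averaged 4.28 on ICG-001 and 5.56 on DMSO. The part of these markers in the results below was not tested.

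Untreated by ICG-001, CAL27 cells had the higher level of most interferon-stimulated genes. Of the 53, 42 were above and 2 below their HSC-3 level on DMSO (limma, adjusted p at most 0.05), while 28.6% of all 13493 tested genes were above and 30.1% below. The 42 genes are 79.2% of those measured. They include 11 that passed the filter for testing, described below, through CAL27 arrays alone. These 11 add no support to the count, and they are also in the median. The median difference over the 53 was 1.14, against -0.024 over all tested genes. Under the stricter limits of the study (adjusted p 0.01, 1.5-fold), 36 were above and 2 below, where 14.9% of all genes were called in each direction. Each array held the RNA of a whole well, so fewer cells that express a gene and less of its RNA per cell cannot be told apart. With 1 line of each kind, the test compares these 2 lines.

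**Figure D1:**
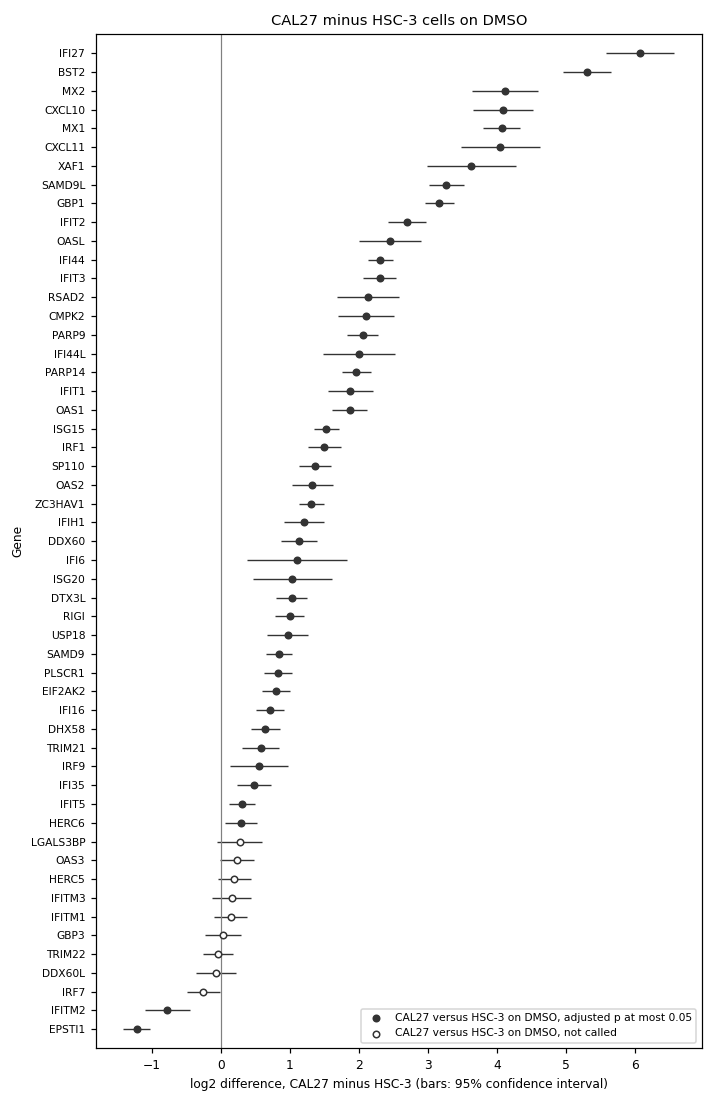
Difference in level between CAL27 and HSC-3 cells on DMSO for the 53 interferon-stimulated genes (x axis, log2, CAL27 minus HSC-3), with 95% confidence intervals as bars and 3 arrays per line. Filled points passed an adjusted p of 0.05, and 42 of them lie right of 0, with IFI27 at 6.07 and EPSTI1 at -1.22 as the ends of the range.

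IFI27 and BST2 had the widest gaps. IFI27, which codes for a small mitochondrial membrane protein, read 8.98, 9.12 and 9.15 in CAL27 cells on DMSO, against 2.51, 3.06 and 3.45 in HSC-3 cells on DMSO. All CAL27 arrays stood far above all HSC-3 arrays, a log2 difference of 6.07 ± 0.21 (SE, adjusted p = 7.6e-07, limma). BST2, or tetherin, which holds budding virus particles at the cell surface, read 7.58, 7.43 and 7.73 in CAL27 cells, against 2.35, 2.48 and 1.97 in HSC-3 cells. Its HSC-3 levels were below the array median on every array, and the log2 difference was 5.31 ± 0.15 (SE, adjusted p = 3.8e-07). Both genes passed the filter for testing, described below, through CAL27 arrays alone, so their tests add no support to the difference between the lines. No detection calls were used, so a level under the array median was not told apart from background, and such a difference may be understated.

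The MX GTPases, which trap viral nucleoproteins, were both higher in CAL27 cells. MX1 read 8.71, 8.82 and 8.99 in CAL27 cells, against 4.69, 4.68 and 4.95 in HSC-3 cells, a log2 difference of 4.07. MX2 differed by 4.12 on the log2 scale. Neither gene overlapped between the lines. The 2 chemokines that draw T cells through the receptor CXCR3 differed as widely. CXCL10 read 6.5, 6.58 and 6.96 in CAL27 cells, against 2.22, 2.70 and 2.85 in HSC-3 cells. CXCL11 read 7.50, 7.26 and 7.38 in CAL27 cells, against 3.40, 2.74 and 3.84 in HSC-3 cells. In both genes the lines were well apart, with log2 differences of 4.09 and 4.05. IFI27, BST2, MX1, MX2, CXCL10 and CXCL11 are the 6 genes with a difference over 4. Of these, MX2 and CXCL11 passed the filter through CAL27 arrays alone, as did IFI27 and BST2.

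Whole families leaned the same way. All 4 IFIT genes, whose products bind foreign RNA and hold back its translation, were higher in CAL27 cells, by 2.70 for IFIT2, 2.30 for IFIT3, 1.87 for IFIT1 and 0.30 for IFIT5 on the log2 scale. The products of OAS1, OAS2 and OAS3 make the oligoadenylates that activate RNase L. Of the 4 OAS genes, OASL (2.45), OAS1 (1.87) and OAS2 (1.32) were higher, and OAS3 had a difference of 0.24 that did not pass (adjusted p = 0.088). Of the 5 RNA sensors and related helicases, RIGI, IFIH1, DHX58 and DDX60 were higher, by 0.64 to 1.21. PARP9, DTX3L and PARP14, partners in the ADP-ribosylation of interferon signalling proteins, were higher by 2.05, 1.02 and 1.96. The viperin gene RSAD2 and its neighbor CMPK2, which act on nucleotide pools, were higher by 2.13 and 2.11.

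The 11 genes not higher in CAL27 cells were spread over the families, and only the IFITM family held more than 1. None of the 3 IFITM genes, which block virus entry at membranes, was higher in CAL27 cells. IFITM1 and IFITM3 did not pass (log2 differences of 0.14 and 0.15), and IFITM2 was lower by a log2 difference of -0.78. EPSTI1 was lower too, at -1.22. TRIM22, a ubiquitin ligase of the tripartite motif family, read 7.27, 7.47 and 7.47 in CAL27 cells, against 7.39, 7.47 and 7.49 in HSC-3 cells, so the lines overlapped. Of the measured transcription factors, IRF1 (1.5) and IRF9 (0.55) were higher in CAL27 cells, the IRF9 call being kept in 1 of 6 omissions of an array (0.41 to 0.77, adjusted p up to 0.10), and IRF7 had a difference of -0.26 that did not pass. The other genes that did not pass were HERC5, DDX60L, LGALS3BP and GBP3.

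The array median was also the filter for testing, so genes high in 1 line could pass it through that line alone. Of the 53 genes, 37 were above it on all 12 ICG-001 arrays. A further 11 passed through CAL27 arrays and were above it on no HSC-3 array of this set, which restates their level difference and adds no support to it. They are IFIT1, IFIT2, MX2, DHX58, IFI27, IFI44L, RSAD2, CMPK2, ISG20, BST2 and CXCL11. IRF7 was the 1 gene above it on HSC-3 arrays only. The median level of the 53 genes was between 7.74 and 7.83 on CAL27 arrays and between 6.24 and 6.32 on HSC-3 arrays, both on DMSO.

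**Figure D2:**
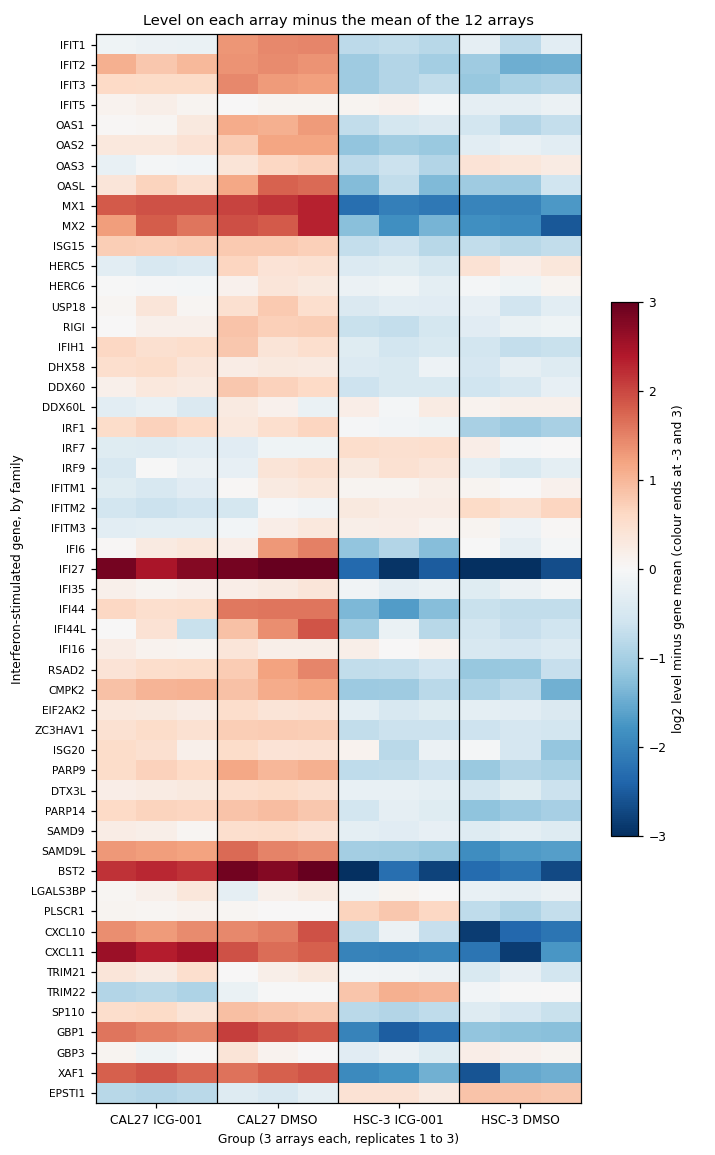
Level of each of the 53 interferon-stimulated genes on the 12 ICG-001 arrays, as log2 level minus the mean of the gene over the 12 arrays, with genes down the page by family and arrays across by group. The left 6 columns (CAL27) are red for most genes and the right 6 (HSC-3) blue. The first 3 columns (CAL27 on ICG-001) are lower than the next 3 for IFIT1, IFIT2, IFIT3 and the OAS genes.

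A set of these genes was lower on ICG-001 in CAL27 cells, with IFIT1 and IFI44L at the largest falls and all 4 OAS genes among those called. Of the 53 genes, 21 fell and 1 rose at an adjusted p of at most 0.05 (limma), where 5.9% of all tested genes fell and 5.33% rose. The 21 genes are 39.6% of those measured. They include IFIT1 and IFI44L, which passed the filter through CAL27 DMSO arrays alone, and this adds no support to their falls. The median log2 fold change of the 53 was -0.35, against 0.0044 over all tested genes, and 45 of the 53 values were negative. Under the stricter limits, 10 fell and 1 rose, with backgrounds of 1.72% and 1.64%. On 35 genes all 3 ICG-001 arrays read below all 3 DMSO arrays, and on 2 genes above, where this held for 18.7% and 18.2% of all genes. The count of 21 depended on single arrays, being 12 without ICG-001 replicate 1, 12 without ICG-001 replicate 3 and 13 without DMSO replicate 2.

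IFIT1 had the largest fall. It read 4.13, 4.07 and 4.06 in CAL27 cells on ICG-001, against 5.59, 5.69 and 5.72 on DMSO. The groups were well apart, with a 2.99-fold fall (log2 fold change of -1.58 ± 0.08 SE, adjusted p = 6.1e-05). OAS1 read 6.67, 6.69 and 6.93 on ICG-001, against 7.76, 7.70 and 7.91 on DMSO. Its groups did not overlap and it fell 2.04-fold (adjusted p = 0.0014). OASL fell with it by a log2 fold change of -1.04, and OAS2 and OAS3 by -0.68 each, so that all 4 OAS genes fell. IFIT3 and IFIT2 fell by -0.73 and -0.42, the IFIT2 call being kept in 1 of 6 omissions, and IFIT5 had a value of 0.06 that did not pass.

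IFI44 and IFI44L are neighboring genes of the antiviral response. IFI44 read 7.59, 7.47 and 7.48 on ICG-001, against 8.54, 8.57 and 8.56 on DMSO. Its DMSO arrays lay close together with all ICG-001 arrays below them, a 2.06-fold fall (adjusted p = 0.00041). IFI44L read 3.72, 4.14 and 3.06 on ICG-001, against 4.59, 5.11 and 5.61 on DMSO. The wells of IFI44L spread widely in both groups without overlap, and its log2 fold change of -1.46 carried an SE of 0.31. Without 1 array or another its call was lost in 4 of 6 omissions.

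Other falls were spread over the antiviral roles. HERC5, the ligase that attaches the ubiquitin-like ISG15 to new proteins, read 5.16, 4.99 and 5.07 on ICG-001, against 6.12, 5.88 and 5.93 on DMSO, a log2 fold change of -0.90 (adjusted p = 0.0017). ISG15 itself read 7.75, 7.72 and 7.76 on ICG-001, against 7.79, 7.80 and 7.72 on DMSO, and its groups overlapped. RIGI, the sensor of viral RNA ends, fell by -0.67, and the helicase DDX60 by -0.45. TRIM22 fell by -0.81, BST2 by -0.71, RSAD2 by -0.65, IFITM1 by -0.61 and IFITM3 by -0.45. PARP9, EPSTI1, GBP1 and SAMD9 fell by between -0.46 and -0.34. SAMD9 lost its call whichever of the 6 arrays was left out. RSAD2, IFITM3 and GBP1 kept their call in 1 of 6 omissions each, DDX60 and EPSTI1 in 2, OAS2 in 3 and PARP9 in 4. IFIT1, IFIT3, OAS1, OAS3, OASL, HERC5, RIGI, IFI44, IFITM1, BST2, TRIM22 and CXCL11 kept theirs in all 6 omissions.

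CXCL11 was the 1 gene that rose in CAL27 cells. It read 8.15, 7.96 and 8.10 on ICG-001, against 7.50, 7.26 and 7.38 on DMSO, with no overlap and a log2 fold change of 0.69 ± 0.10 (SE, adjusted p = 0.0054). CXCL10, its partner ligand, read 6.45, 6.34 and 6.48 on ICG-001, against 6.5, 6.58 and 6.96 on DMSO. Its log2 fold change of -0.26 did not pass (adjusted p = 0.24). IFI6, a mitochondrial protein that holds back cell death, read 7.16, 7.40 and 7.47 on ICG-001, against 7.32, 8.43 and 8.63 on DMSO. DMSO replicate 1 lay among the ICG-001 arrays, and the log2 fold change of -0.78 did not pass (adjusted p = 0.15). The other genes with no call included MX1 (-0.28, 95% CI -0.51 to -0.06), IFI27 (-0.28, -0.56 to 0.01) and the 3 measured transcription factors IRF1 (0.12, -0.12 to 0.37), IRF7 (-0.16, -0.37 to 0.06) and IRF9 (-0.43, -0.89 to 0.03).

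The starts of the genes that fell were read for the response element that ISGF3 binds. RefSeq promoter windows on GRCh38.p14, from 250 bases before to 50 after a start, were on hand for 44 of the 53 genes. They were searched on both strands for a short core of that element, GAAA followed by any 2 bases and a second GAAA. Of the 44 genes, 31 (70.45%) held it, against 4.38% of all 27305 genes in the table. It was present in 15 of 17 genes that fell in CAL27 cells (88.24%) and in 16 of 26 that did not pass (61.54%). IFIT2, OAS2, OASL and TRIM22 fell too, but no window was on hand for them. The 53 genes were chosen as switched on by interferon, so the gap to all genes is no independent result. PARP9 and DTX3L share 1 match, since their windows overlap. A match describes the letters and was not tested for binding. The windows below belong to the 6 genes with the largest falls in CAL27 cells among those with a match, each written from upstream to downstream on the strand of the gene, with matches in capitals.
IFIT1 at chr10:89392373-89392672, plus strand: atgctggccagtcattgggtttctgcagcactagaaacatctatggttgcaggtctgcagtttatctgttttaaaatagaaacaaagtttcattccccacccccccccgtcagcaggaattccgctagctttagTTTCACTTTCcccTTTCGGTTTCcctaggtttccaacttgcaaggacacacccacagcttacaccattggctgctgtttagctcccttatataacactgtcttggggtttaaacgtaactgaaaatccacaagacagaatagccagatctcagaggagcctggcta
IFI44L at chr1:78620198-78620497, plus strand: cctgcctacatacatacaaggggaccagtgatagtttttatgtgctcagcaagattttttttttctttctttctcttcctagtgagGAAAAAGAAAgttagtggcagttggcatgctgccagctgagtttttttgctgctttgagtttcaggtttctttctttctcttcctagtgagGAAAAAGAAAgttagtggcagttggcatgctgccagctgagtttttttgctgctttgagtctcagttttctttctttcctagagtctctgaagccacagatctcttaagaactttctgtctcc
IFI44 at chr1:78649539-78649838, plus strand: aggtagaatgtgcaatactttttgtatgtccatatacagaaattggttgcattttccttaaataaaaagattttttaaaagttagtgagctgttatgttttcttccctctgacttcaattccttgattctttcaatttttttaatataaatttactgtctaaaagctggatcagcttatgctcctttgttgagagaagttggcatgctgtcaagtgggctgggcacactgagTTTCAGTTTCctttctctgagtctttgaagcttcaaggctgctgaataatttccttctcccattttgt
HERC5 at chr4:88456869-88457168, plus strand: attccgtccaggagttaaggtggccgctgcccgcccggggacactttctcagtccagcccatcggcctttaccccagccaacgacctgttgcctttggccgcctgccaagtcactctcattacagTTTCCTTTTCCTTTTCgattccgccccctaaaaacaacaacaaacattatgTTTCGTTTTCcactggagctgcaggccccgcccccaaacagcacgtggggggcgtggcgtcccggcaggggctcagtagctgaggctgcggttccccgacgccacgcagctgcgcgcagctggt
IFIT3 at chr10:89327747-89328046, plus strand: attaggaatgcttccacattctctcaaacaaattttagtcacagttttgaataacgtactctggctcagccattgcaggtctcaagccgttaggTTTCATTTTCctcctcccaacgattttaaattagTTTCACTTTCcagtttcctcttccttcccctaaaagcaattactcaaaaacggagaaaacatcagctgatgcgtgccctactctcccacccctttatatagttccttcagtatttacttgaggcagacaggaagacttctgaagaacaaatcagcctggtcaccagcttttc
BST2 at chr19:17405581-17405880, minus strand: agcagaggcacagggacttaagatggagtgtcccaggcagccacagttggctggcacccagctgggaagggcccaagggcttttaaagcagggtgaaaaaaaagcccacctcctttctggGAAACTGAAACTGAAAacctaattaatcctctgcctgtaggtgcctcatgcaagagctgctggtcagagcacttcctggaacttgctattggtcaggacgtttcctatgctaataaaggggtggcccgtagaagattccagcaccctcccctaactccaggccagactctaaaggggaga
In IFIT1 the 2 matches lie close together, at bases -116 to -107 and -103 to -94 from the start, and read TTTCACTTTC and TTTCGGTTTC, the reverse complement of the searched core. The BST2 window holds 2 matches that share bases, GAAACTGAAA at -130 to -121 and again at -124 to -115. HERC5 has 3 matches, 2 of them overlapping. IFI44 has 1 match, which lies 18 bases before its start.

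The 53 genes split in HSC-3 cells. Of the 53, 13 rose and 11 fell on ICG-001 (limma, adjusted p at most 0.05), where 24.2% of all tested genes rose and 23.6% fell. These are 24.5% and 20.8% of the genes measured, close to the background. The median log2 fold change was 0.063, against 0.00081 over all tested genes. At the stricter limits of 0.01 and 1.5-fold, 7 rose and 6 fell, with backgrounds of 9.02% and 8%.

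**Figure D3:**
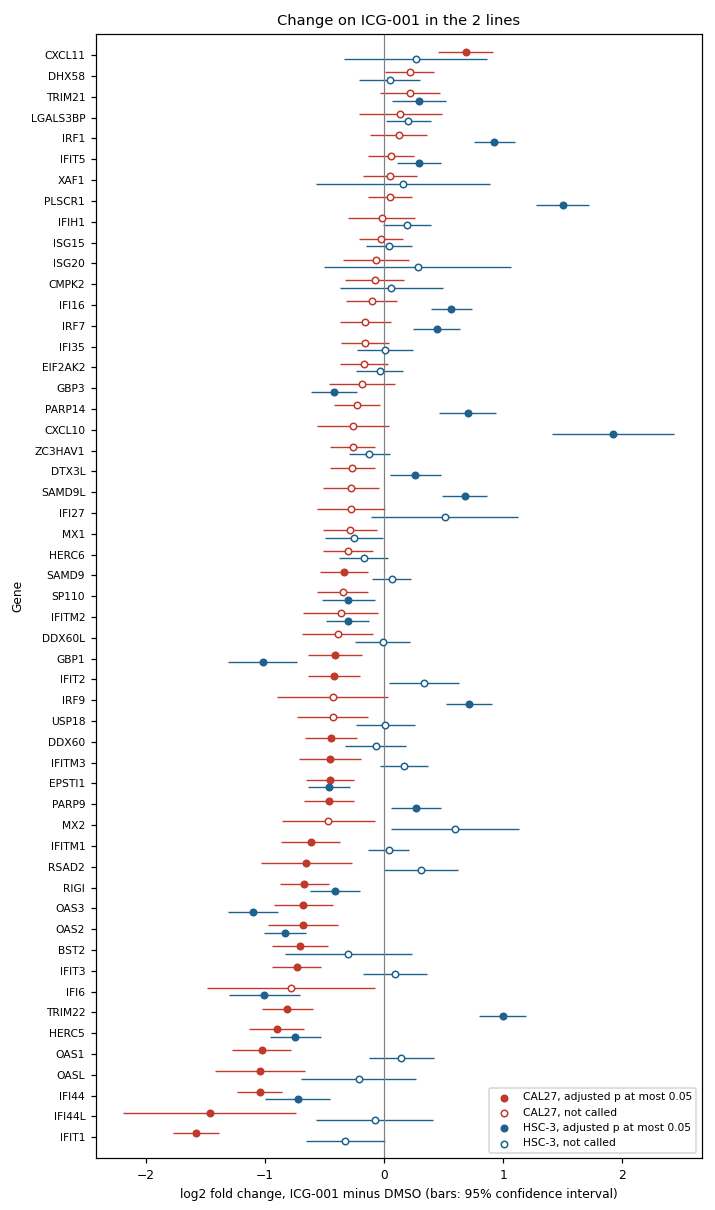
log2 fold change on ICG-001 relative to DMSO (x axis) for the 53 genes, in CAL27 cells (red) and HSC-3 cells (blue), with 95% confidence intervals as bars, 3 arrays per group and filled points at an adjusted p of at most 0.05. For 45 of the 53 genes the CAL27 value lies left of the HSC-3 value, and CXCL10, PLSCR1 and TRIM22 have the largest rises in HSC-3 cells.

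CXCL10 had the largest rise. It read 4.31, 4.89 and 4.35 in HSC-3 cells on ICG-001, against 2.22, 2.70 and 2.85 on DMSO. The groups were far apart, a 3.8-fold rise with DMSO levels below the array median (log2 fold change of 1.93 ± 0.21 SE, adjusted p = 0.00057), with 1 of the 3 ICG-001 arrays above that median. PLSCR1, a phospholipid scramblase that enters the nucleus after interferon, read 9.76, 9.91 and 9.70 on ICG-001, against 8.34, 8.16 and 8.38 on DMSO. It rose 2.83-fold with no overlap (adjusted p = 7.7e-05). TRIM22 read 8.31, 8.53 and 8.50 on ICG-001, against 7.39, 7.47 and 7.49 on DMSO, and rose 1.99-fold (adjusted p = 0.0002).

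All 3 measured transcription factors rose in HSC-3 cells. IRF1, which drives interferon-γ targets, read 7.78, 7.72 and 7.69 on ICG-001, against 6.83, 6.73 and 6.85 on DMSO, a log2 fold change of 0.93 ± 0.07 (SE, adjusted p = 0.00014). IRF9, the DNA-binding part of ISGF3, read 6.34, 6.50 and 6.42 on ICG-001, against 5.75, 5.60 and 5.76 on DMSO, a log2 fold change of 0.71. IRF7, which amplifies the production of interferon-α, rose by 0.44. In none of the 3 did the groups overlap. The 3 genes of the PARP9 group rose as well, PARP14 by 0.70, PARP9 by 0.27 and DTX3L by 0.26, the last 2 keeping their call in 1 of 6 omissions each. SAMD9L, a translation inhibitor, rose by 0.68 and the DNA sensor IFI16 by 0.56, and TRIM21 and IFIT5 rose by 0.30 and 0.29, with the call kept in 1 and 2 of 6 omissions.

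The falls in HSC-3 cells were led by OAS3. It read 6.90, 7.04 and 6.80 on ICG-001, against 8.09, 8.02 and 7.92 on DMSO, a 2.14-fold fall with no overlap (adjusted p = 0.00017). GBP1, a GTPase that coats bacteria and vacuoles, read 6.84, 6.37 and 6.58 on ICG-001, against 7.65, 7.60 and 7.59 on DMSO. Its groups were apart and it fell 2.02-fold (adjusted p = 0.00075). IFI6 fell by a log2 fold change of -1.01, OAS2 by -0.83, HERC5 by -0.75, IFI44 by -0.72, EPSTI1 by -0.46, GBP3 by -0.42, RIGI by -0.41, IFITM2 by -0.31 and SP110 by -0.30, the last keeping its call in 1 of 6 omissions. IFIT1 read 3.48, 3.51 and 3.42 on ICG-001, against 3.98, 3.47 and 3.94 on DMSO, below the array median throughout. Its groups overlapped and its log2 fold change of -0.33 did not pass (adjusted p = 0.095).

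Set side by side, 7 genes fell in both lines, namely OAS2, OAS3, HERC5, RIGI, IFI44, GBP1 and EPSTI1. In CAL27 cells the calls of GBP1, EPSTI1 and OAS2 were kept in 1, 2 and 3 of 6 omissions. The share of all tested genes that fell in both lines was not counted, while 5.9% fell in CAL27 and 23.6% in HSC-3 cells. PARP9 and TRIM22 fell in CAL27 cells and rose in HSC-3 cells. A further 12 fell with a call in CAL27 cells alone, 4 fell and 11 rose with a call in HSC-3 cells alone, CXCL11 rose with a call in CAL27 cells alone, and 16 had a call in neither. A call in 1 line alone is no test of a difference between lines, which the next comparison gives.

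The responses of the 2 lines were tested against each other over all 12 arrays. For 22 genes the log2 fold change was lower in CAL27 than in HSC-3 cells and for 2 it was higher (limma interaction, adjusted p at most 0.05), where 13.9% of all genes were lower and 13.3% higher. The 22 genes are 41.5% of those measured. The median of the 53 differences was -0.38, against 0.011 over all tested genes. With limits of 0.01 and 1.5-fold, 17 were lower and 0 higher, with backgrounds of 6.49% and 5.14%. The same 12 arrays give the separate responses above, so these counts add no independent data.

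**Figure D4:**
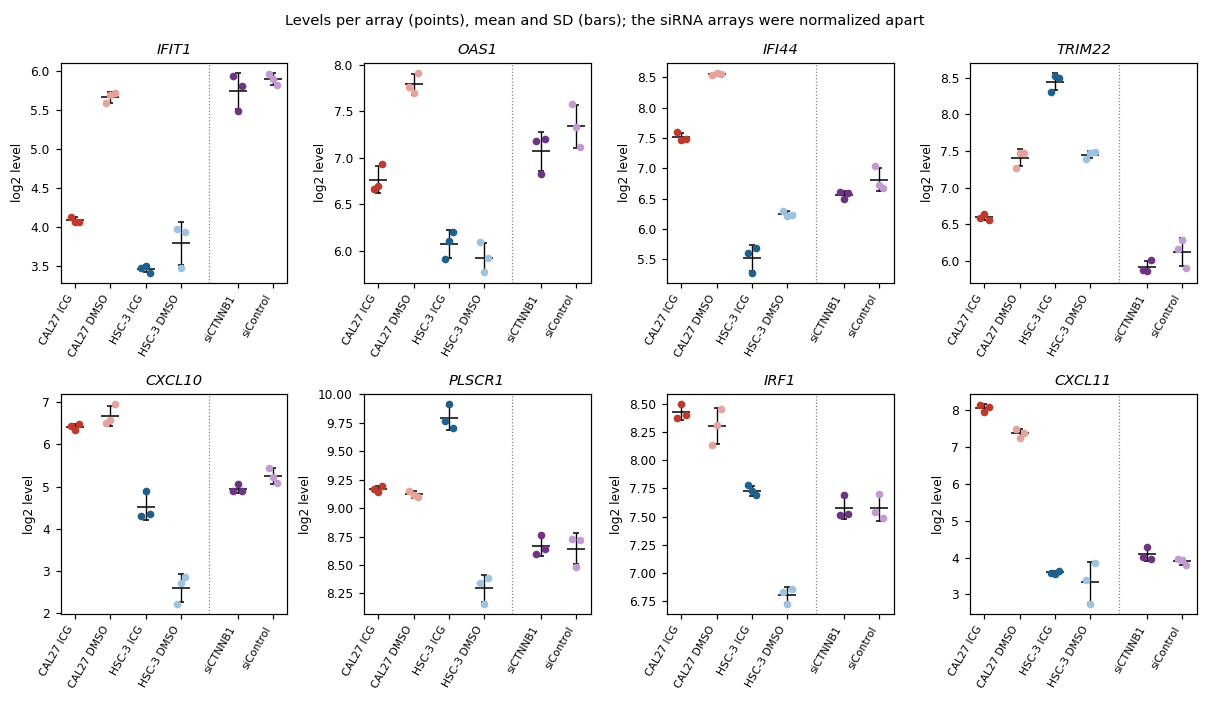
Level on each array (y axis, log2, 1 point per array) of 8 interferon-stimulated genes in the 6 groups, with mean and SD as bars. Right of the dotted line are the siRNA arrays, normalized apart and not comparable in level with those on the left, and TRIM22 shows ICG-001 arrays below DMSO in CAL27 cells and above DMSO in HSC-3 cells.

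TRIM22 had the clearest opposed response, where the log2 fold change was -0.81 for CAL27 and 1.00 for HSC-3, with a difference of -1.81 ± 0.12 (SE, adjusted p = 2.3e-06). The lines overlapped on DMSO and were apart on ICG-001, where CAL27 cells read 6.59, 6.64 and 6.56 and HSC-3 cells 8.31, 8.53 and 8.50. CXCL10 had the largest difference, -2.18 ± 0.27 (SE, adjusted p = 0.00017), and PLSCR1 differed by -1.45. In both, the HSC-3 response made up most of the gap. OAS1 differed by -1.17, with 0.15 in HSC-3 cells (adjusted p = 0.34). IFIT1 differed by -1.25, but it was below the array median on all 6 HSC-3 arrays, where a fall is hard to tell from background. The same holds for IFIT2 and RSAD2, which are also among the 17. The 3 transcription factors differed by -1.14 for IRF9, -0.80 for IRF1 and -0.60 for IRF7, which was below the array median on all 6 CAL27 arrays. OAS3 (0.42) and GBP1 (0.61) were the 2 genes called with the greater fall in HSC-3 cells, and OAS3 passed narrowly (adjusted p = 0.044), with the call kept in 4 of 12 omissions.

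The difference between the lines was smaller in size on ICG-001 than on DMSO for 39 of the 53 genes, and for 48.1% of all tested genes, a count of point estimates with no test. With both lines on ICG-001, CAL27 cells were above HSC-3 cells for 38 genes and below for 9. Of all tested genes, 30.2% were above and 31.6% below, and the median log2 difference of the 53 was 0.69. The 38 include genes that passed the filter through CAL27 arrays alone, IFIT1 and CXCL11 among them. The 9 include IRF7, which passed through HSC-3 arrays alone. Such genes add no support to these counts. IFIT1 in CAL27 cells on ICG-001 read 4.13, 4.07 and 4.06, against 3.48, 3.51 and 3.42 in HSC-3 cells on ICG-001. The difference was 0.62 where it was 1.87 on DMSO, and all of these ICG-001 levels were below the array median. PLSCR1 was lower in CAL27 cells by a log2 difference of -0.63 on ICG-001, and was higher by 0.83 on DMSO. IRF9 was lower by -0.59 on ICG-001, and was higher by 0.55 on DMSO. The order of the lines thus differed for PLSCR1, while for IRF9 the call on DMSO was the one kept in 1 of 6 omissions. MX1 and CXCL11 differed by 4.04 and 4.47 on ICG-001.

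The knockdown asked whether loss of the β-catenin transcript touched these genes in HSC-3 cells, with both groups transfected with siRNA. On the siRNA arrays 46 to 48 of the 53 genes were above the array median, and on the other HSC-3 arrays 38 to 40. The 2 sets were normalized apart, and an effect of transfection was not tested. CTNNB1 read 7.35, 6.90 and 7.25 on CTNNB1 siRNA, against 10.22, 10.26 and 10.19 on control siRNA, an 8.34-fold fall (adjusted p = 0.0005). Of the 53 genes, 48 were above the array median on at least 1 siRNA array and were tested, and RSAD2, CMPK2, ISG20, BST2 and CXCL11 were not. None of the 48 passed in either direction by limma at an adjusted p of 0.05, where 0.0789% of all 12682 tested genes fell and 0.00789% rose. At an unadjusted p under 0.05, 7 were lower and 0 higher, where 5.13% of all genes were lower and 4.11% higher. With a trended and robust variance prior, GBP3 alone passed (adjusted p = 0.0034).

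**Figure D5:**
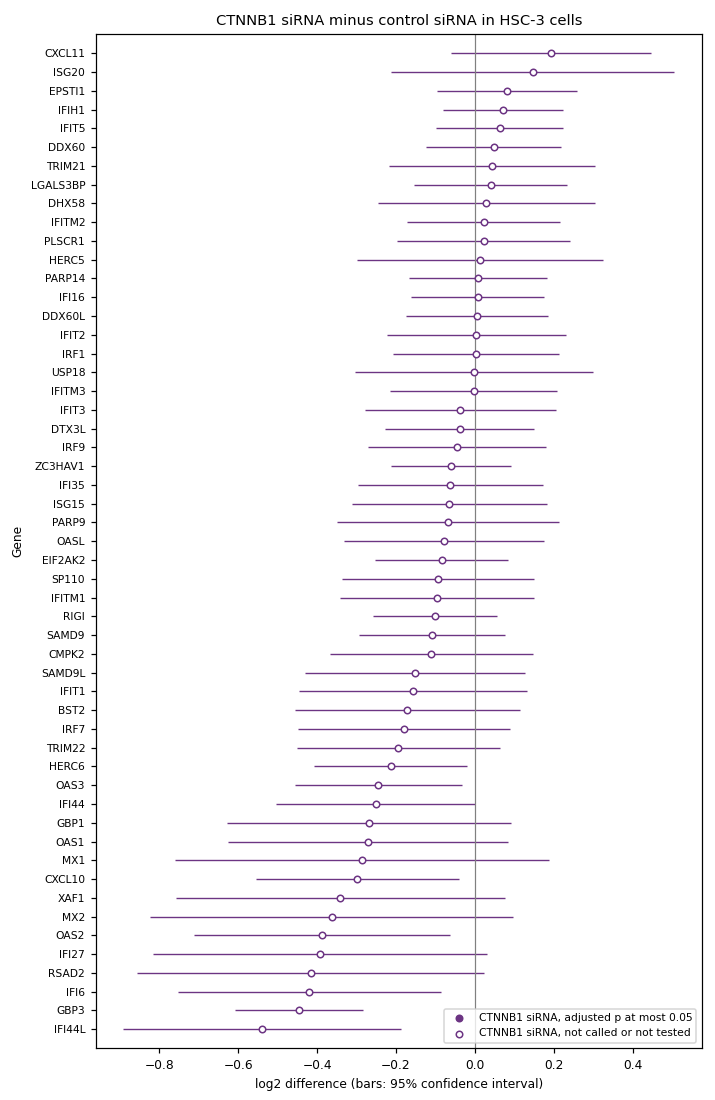
Difference in level between CTNNB1 siRNA and control siRNA in HSC-3 cells (x axis, log2) for the 53 genes, with 95% confidence intervals as bars and 3 arrays per group. All points are open, as none passed an adjusted p of 0.05, and the values run between IFI44L at -0.54 and CXCL11 at 0.19.

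GBP3 came nearest. It read 8.28, 8.12 and 8.19 on CTNNB1 siRNA, against 8.64, 8.62 and 8.66 on control siRNA. The groups did not overlap, and the log2 difference of -0.45 (95% CI -0.61 to -0.28) had an adjusted p of 0.17. IFI44L read 5.43, 5.00 and 5.19 on CTNNB1 siRNA, against 5.88, 5.88 and 5.49 on control siRNA, and OAS2 read 7.20, 6.86 and 7.12, against 7.69, 7.38 and 7.26. In both, all CTNNB1 siRNA wells read below all control wells by a gap smaller than the spread within a group, with log2 differences of -0.54 (adjusted p = 0.37) and -0.39 (adjusted p = 0.46). The other genes with an unadjusted p under 0.05 were IFI6 (-0.42), CXCL10 (-0.30), OAS3 (-0.24) and HERC6 (-0.21). Groups were apart for 9 tested genes that were lower and 1 that was higher, where this held for 9.24% and 9.83% of all genes. The median of the 48 differences was -0.073, against 0.0077 over all genes, with 33 below 0.

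The 13 genes that rose on ICG-001 in HSC-3 cells had knockdown differences between -0.30 for CXCL10 and 0.06 for IFIT5, none of which passed. IRF7 had -0.18 (95% CI -0.45 to 0.09) and SAMD9L -0.15 (-0.43 to 0.13). PLSCR1 had 0.02 (95% CI -0.20 to 0.24), IRF1 0.00 (-0.21 to 0.21), PARP14 0.01 (-0.17 to 0.18) and IRF9 -0.05 (-0.27 to 0.18). TRIM22 had -0.19 (-0.45 to 0.06). Intervals of the other genes that rose are not given here, and none was set against a log2 fold change on ICG-001. The 11 genes that fell on ICG-001 in HSC-3 cells did not pass in the knockdown either. HERC5, IFITM2 and EPSTI1 had positive knockdown differences, up to 0.08 for EPSTI1. The others had negative ones, down to -0.45 for GBP3, which fell by -0.42 on ICG-001. The arrays come from separate normalizations, and the 2 responses were not tested against each other.

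The pathway upstream of these genes was read from lists of its parts. Most interferon genes were dim, with 3 of 19 measured ligand genes above the array median on any ICG-001 array. IFNB1 was below it on all 18 arrays. It averaged 3.04 in CAL27 cells on ICG-001 and 2.89 on DMSO, and 2.95 in HSC-3 cells on ICG-001 and 2.86 on DMSO. IFNE, an interferon of epithelia, was lower in CAL27 cells on DMSO, at 2.81 against 4.57 in HSC-3 cells (limma, adjusted p = 0.00085). Both means were below the array median, and IFNE passed the filter through HSC-3 arrays alone.

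Of 10 measured receptor chains and kinases, 3 were higher in CAL27 cells on DMSO and none lower by limma, with 7 not passing. Of all tested genes, 28.6% were higher and 30.1% lower. IFNGR1, the ligand-binding chain of the interferon-γ receptor, averaged 9.53 in CAL27 cells on DMSO and 7.51 in HSC-3 cells on DMSO, and IFNGR2 and IL10RB were higher by 0.64 and 0.61. On ICG-001, 2 fell and 1 rose in CAL27 cells, and 3 rose in HSC-3 cells. Of all tested genes, 5.9% fell and 5.33% rose in CAL27 cells, and 24.2% rose and 23.6% fell in HSC-3 cells. IFNGR1 read 9.17, 9.06 and 9.0 in CAL27 cells on ICG-001, against 9.49, 9.48 and 9.62 on DMSO. In HSC-3 cells it read 8.47, 8.31 and 8.13 on ICG-001, against 7.61, 7.40 and 7.51 on DMSO. It thus fell in CAL27 and rose in HSC-3 cells without overlap, and the 2 responses differed by -1.25 (adjusted p = 8.2e-05). IL10RB, shared by the interferon-λ receptor, did likewise, with -0.36 in CAL27 and 0.57 in HSC-3 cells. JAK1 rose in both, by 0.35 in CAL27 and 0.60 in HSC-3 cells. The chains of the type I receptor, IFNAR1 and IFNAR2, passed in neither line.

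Among 17 genes of the pathways that induce interferon, 15 were tested. TLR3, the endosomal sensor of double-stranded RNA, averaged 5.97 in CAL27 cells on ICG-001 and 6.69 on DMSO, and 7.66 in HSC-3 cells on ICG-001 and 6.87 on DMSO. Its responses differed by -1.5 (adjusted p = 6.4e-06). It was the 1 gene of the 15 with a call in CAL27 cells, and 7 rose and 1 fell in HSC-3 cells. IKBKE, a kinase that acts on IRF3 and IRF7, rose by 0.82 in HSC-3 cells. Of 15 negative regulators, 1 fell in CAL27 cells, while 4 rose and 5 fell in HSC-3 cells. Beside both lists, 5.9% of all tested genes fell and 5.33% rose in CAL27 cells. In HSC-3 cells 24.2% of all tested genes rose and 23.6% fell. The phosphatase PTPN6 rose by 1.09 and the JAK inhibitor SOCS3 by 0.68 in HSC-3 cells.

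A second list of 60 further interferon-induced genes, of which 56 were measured and 52 tested, was counted in the same way. On DMSO CAL27 cells were above HSC-3 cells for 40 and below for 4, where 28.6% of all tested genes were above and 30.1% below. APOBEC3G, a cytidine deaminase, led in size at a log2 difference of 6.22. On ICG-001 10 fell and 5 rose in CAL27 cells, where 5.9% of all tested genes fell and 5.33% rose. IDO1, which breaks down tryptophan, averaged 4.25 on ICG-001 and 6.70 on DMSO (log2 fold change of -2.45), and GBP2 and GBP4 each fell by -1.18. WARS1 and RBCK1 rose there by 1.01 and 1.03, and in HSC-3 cells by 1.08 and 1.13. In HSC-3 cells 19 rose and 12 fell, where 24.2% of all tested genes rose and 23.6% fell, so the falls were near the background. LAMP3 rose there by 2.67, C1S by 1.71, SLFN5 by 1.56 and APOL6 by 1.5. None of the 40 tested on the siRNA arrays passed in either direction, where 0.0789% of all tested genes fell and 0.00789% rose.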

How the data were processed

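Affymetrix Human Gene 2.0 ST arrays were used for all samples. The log2 values are those the authors deposited, made by robust multi-array average (RMA) with affy 1.36.1 in R 2.15.1 per the labels, the probes being gathered by Entrez gene. Normalization was separate for the 12 ICG-001 arrays and for the 6 siRNA arrays, which shared theirs with arrays not used here. Such normalization makes array distributions equal, so levels are relative. The sources used here name no genome build for the probes. All columns of sample values were used.

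Groups came from the titles. Symbols came from a platform annotation that named 22458 of 23786 probesets. Testing was limited to genes that exceeded the array median on 1 or more arrays of their set, 13493 in the ICG-001 set and 12682 in the siRNA set, after the methods of the study. limma 3.58.1 (R 4.3.3) gave the model fits, on 6 arrays per comparison and on 12 for the difference of responses. Benjamini-Hochberg adjustment ran over all tested genes, with a call at 0.05 and the limits of the study (0.01 and 1.5-fold) as an alternative. Intervals are 95% confidence intervals. The fit was checked on simulated data, and precision is limited by the number of arrays. The members, lists and tests were chosen with earlier results of these data known. All members could be named, and genes of other lists by the limits of the study, up to 6 per list and comparison with the smallest adjusted p, besides IFNB1, receptors, kinases and CTNNB1. CD14, CD68, CSF1R, COL1A1, CDH5 and PTPRC were named after their values were seen. Alternatives were the filter, the variance prior, the normalization, the samples in the fit, a replicate block and leaving out each array.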

Additional observations from a re-analysis of the deposited data

Results flagged for a closer look

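The responses to ICG-001 of CAL27 and HSC-3 cells differed for 17 interferon-stimulated genes by the limma interaction test, with limits of 0.01 for the adjusted p and 1.5-fold for the size. All 17 differences were negative, where 6.49% of all tested genes were called in that direction and 5.14% in the other. No cause was tested. IFIT1, IFIT2 and RSAD2 were below the array median on all HSC-3 arrays and passed the filter through CAL27 arrays, so a fall in HSC-3 cells is hard to tell from background. IRF7 was below it on all CAL27 arrays. With 3 arrays per group, single arrays were not examined for standing apart. Among the IFIT genes, IFIT1 had a difference of -1.25, from -1.58 in CAL27 and -0.33 in HSC-3 cells. IFIT2 had a difference of -0.75, from -0.42 in CAL27 and 0.34 in HSC-3 cells. IFIT3 had a difference of -0.83, from -0.73 in CAL27 and 0.10 in HSC-3 cells. For the oligoadenylate synthetase OAS1 and the viperin gene RSAD2, OAS1 had a difference of -1.17, from -1.03 in CAL27 and 0.15 in HSC-3 cells. RSAD2 had a difference of -0.96, from -0.65 in CAL27 and 0.31 in HSC-3 cells. Among the transcription factors, IRF1 had a difference of -0.80, from 0.12 in CAL27 and 0.93 in HSC-3 cells. IRF7 had a difference of -0.60, from -0.16 in CAL27 and 0.44 in HSC-3 cells. IRF9 had a difference of -1.14, from -0.43 in CAL27 and 0.71 in HSC-3 cells. Of the IFITM genes, IFITM1 had a difference of -0.65, from -0.61 in CAL27 and 0.04 in HSC-3 cells. IFITM3 had a difference of -0.62, from -0.45 in CAL27 and 0.17 in HSC-3 cells. For the DNA sensor IFI16 and the translation inhibitor SAMD9L, IFI16 had a difference of -0.67, from -0.10 in CAL27 and 0.56 in HSC-3 cells. SAMD9L had a difference of -0.95, from -0.28 in CAL27 and 0.68 in HSC-3 cells. In the PARP9 group, PARP9 had a difference of -0.73, from -0.46 in CAL27 and 0.27 in HSC-3 cells. PARP14 had a difference of -0.93, from -0.23 in CAL27 and 0.70 in HSC-3 cells. The widest gaps were in PLSCR1, CXCL10 and TRIM22, where PLSCR1 had a difference of -1.45, from 0.05 in CAL27 and 1.5 in HSC-3 cells. CXCL10 had a difference of -2.18, from -0.26 in CAL27 and 1.93 in HSC-3 cells. TRIM22 had a difference of -1.81, from -0.81 in CAL27 and 1.00 in HSC-3 cells. All values are log2 fold changes on ICG-001 relative to DMSO, and the differences are CAL27 minus HSC-3.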

How the results depend on the processing

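No called gene changed direction under any alternative tried. In HSC-3 cells on ICG-001 the balance of 13 rising and 11 falling genes turned to 9 and 10 with the replicate block and to 9 and 10 without ICG-001 replicate 1. The limits of the study gave 10 genes lower in CAL27 cells on ICG-001 (21 at an adjusted p of 0.05), 7 rising and 6 falling in HSC-3 cells (13 and 11), and 0 with a higher response in CAL27 cells (2). Without the intensity filter that last count was 1. A trended and robust prior gave 1 gene lower in the knockdown (0). Cyclic loess and equal array medians moved the median of all genes by at most 0.0281.

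A pairing of the arrays by replicate number was not shown. No comparison had a correlation over 0.1 in every pair of same-numbered arrays (0.18, 0.0277 and 0.11 for CAL27 cells on ICG-001 and DMSO). With 3 arrays per group this check cannot exclude a pairing. With the replicate block, 16 genes fell and 1 rose in CAL27 cells, 9 rose and 10 fell in HSC-3 cells, 1 response was higher in CAL27 cells and 22 were lower, CAL27 cells were above HSC-3 cells for 41 genes and below for 2 on DMSO, above for 38 and below for 9 on ICG-001, and 0 passed in the knockdown.

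Leaving out 1 array at a time gave 12 to 20 genes lower and 1 higher in CAL27 cells on ICG-001, 9 to 12 rising and 10 to 11 falling in HSC-3 cells, 1 to 2 responses higher and 19 to 23 lower in CAL27 cells, 39 to 45 genes above and 2 below their HSC-3 level in CAL27 cells on DMSO, 36 to 38 above and 9 below on ICG-001, and 0 called in the knockdown. The count of responses higher in CAL27 cells was 1 without DMSO replicates 1 or 2 or ICG-001 replicates 2 or 3 of CAL27 cells, and without DMSO replicate 1 or ICG-001 replicates 1 or 3 of HSC-3 cells. The causes were not tested. Levels under the array median limit what can be read of IFIT1, IFIT2, MX2, DHX58, IFI27, IFI44L, RSAD2, CMPK2, ISG20, BST2 and CXCL11 in HSC-3 cells.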
